A study of Mus musculus with 39 samples.

Results

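The endoplasmic reticulum (ER) chaperone and unfolded protein response genes examined here are 40 listed mouse genes, found in the deposited count table by gene symbol, of 43430 gene IDs in that table. All 40 were matched to 1 row each and had counts in the macrophage libraries. They comprise 9 chaperones and lectins, 7 genes of disulfide formation, 4 ER J proteins, 6 sensors, proteases and transcription factors, 11 genes of ER-associated degradation and 3 genes of protein entry into the ER. RNA was sequenced in 39 polyA-selected libraries, each made from lung cells of C57BL/6J mice isolated by sorting. The monocyte libraries came from sorted lung monocytes of naive mice, and the macrophage libraries from Siglec F-low alveolar macrophages of bleomycin-treated mice. Bleomycin damages the alveoli and is used to model pulmonary fibrosis. Mice of each cell type were young or old and received saline (the vehicle) or ISRIB. ISRIB binds the translation initiation factor eIF2B and so counters the integrated stress response. The 8 groups were thus young saline, young ISRIB, old saline and old ISRIB monocytes, and the same 4 groups of macrophages, with 5 libraries each except 4 for young ISRIB macrophages. Young means 8 to 12 weeks in the labels but 3 to 5 months in the series text, and old means over 18 months and 18 to 24 months in turn. ISRIB was given daily from day 7 after bleomycin and cells were taken on day 21, and no timing is stated for naive mice. Every macrophage library came from a bleomycin-treated lung and every monocyte library from a naive one, so cell type and injury cannot be told apart. No label states that libraries of a group came from separate mice, so p-values measure the spread between these libraries, which may be technical.

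The ER folds and modifies proteins destined for membranes, lysosomes and secretion, with chaperones of the heat shock protein families, the lectins calnexin and calreticulin, and disulfide isomerases. When unfolded proteins accumulate, 3 sensors act: IRE1 (Ern1), which splices Xbp1 mRNA, ATF6, which is cut by the proteases encoded by Mbtps1 and Mbtps2 and then acts as a transcription factor, and PERK (Eif2ak3), which phosphorylates eIF2 and so joins this response to the integrated stress response that ISRIB blocks. Their outputs raise chaperones and the machinery of ER-associated degradation, which returns misfolded proteins to the cytosol for breakdown. Macrophages carry a large load of lysosomal and secreted proteins, all of which pass through the ER.

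The promoters of these genes are known for the ER stress response element (ERSE), a CCAAT box and a CCACG box spaced 9 bases apart, which ATF6 binds together with NF-Y. RefSeq promoters of assembly GRCm38.p6 (250 bases before to 50 bases after the RefSeq start) matched 35 of the 40 members, and Hyou1, Manf, Atf6, Derl1 and Sec61a1 had no entry. ERSE, searched on both strands as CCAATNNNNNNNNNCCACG, was found in 9 of the 35 members (25.7%) and in 37 of 27025 genes with a promoter (0.137%). The sites are printed below 5′ to 3′ on the strand of the gene, with the element in capitals and 10 bases on either side. They are shown because several abundant chaperones share them, among them Hspa5, Hsp90b1, Calr and Canx. Pdia4 and Sdf2l1 had no ERSE. Elements that begin with CGTGG lie on the opposite strand.
Hspa5: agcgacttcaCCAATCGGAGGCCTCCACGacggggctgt
Hsp90b1, distal: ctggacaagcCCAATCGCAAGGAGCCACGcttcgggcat
Hsp90b1, proximal: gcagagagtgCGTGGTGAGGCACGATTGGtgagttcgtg
Calr: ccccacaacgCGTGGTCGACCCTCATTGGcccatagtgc
Canx: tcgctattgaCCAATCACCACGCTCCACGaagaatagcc
Creld2: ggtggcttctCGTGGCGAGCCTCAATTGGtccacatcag
Pdia6: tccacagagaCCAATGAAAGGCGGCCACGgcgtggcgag
Dnajc3: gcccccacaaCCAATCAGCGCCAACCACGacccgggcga
Syvn1: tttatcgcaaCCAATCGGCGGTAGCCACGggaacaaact
Derl3: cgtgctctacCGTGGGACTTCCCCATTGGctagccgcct

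These windows lie at chr2:34772015-34772053 (Hspa5, plus strand), chr10:86705628-86705666 and chr10:86705523-86705561 (Hsp90b1, minus strand), chr8:84847065-84847103 (Calr, minus), chr11:50325790-50325828 (Canx, minus), chr15:88819510-88819548 (Creld2, plus), chr12:17266481-17266519 (Pdia6, plus), chr14:118937817-118937855 (Dnajc3, plus), chr19:6046522-6046560 (Syvn1, plus) and chr10:75893232-75893270 (Derl3, plus). ERSE-II, searched on both strands as ATTGG and CCACG with 1 base between them, was found in 2 members, Dnajb11 and Herpud1, which is 5.71% of members and 0.0444% of genes. In Dnajb11 it lay after the RefSeq start. The UPRE letters TGACGTGG, an XBP1 site, were found in Txndc5 alone (0.714% of genes), and the CARE letters TGATGNAA, a site for ATF4 with its partners, in Txndc5 and Herpud1 (4.51% of genes). ERSE, ERSE-II and, on the opposite strand, the UPRE letters share the box CCACG, so these searches overlap in part. GENCODE vM21 places the start of Hspa5 (chr2:34771970-34777547, plus strand) before this RefSeq start. A match describes letters in this window and is not a measured binding site. The bases upstream of Hspa5 and of Herpud1 are shown whole because Hspa5 encodes the main ER chaperone and Herpud1 was the member that differed with age in macrophages. In Hspa5 the capitals mark ERSE (chr2:34771840-34772089, plus strand), and in Herpud1 they mark first the CARE match on the opposite strand and then ERSE-II (chr8:94386179-94386428, plus strand).
Hspa5, upstream bases: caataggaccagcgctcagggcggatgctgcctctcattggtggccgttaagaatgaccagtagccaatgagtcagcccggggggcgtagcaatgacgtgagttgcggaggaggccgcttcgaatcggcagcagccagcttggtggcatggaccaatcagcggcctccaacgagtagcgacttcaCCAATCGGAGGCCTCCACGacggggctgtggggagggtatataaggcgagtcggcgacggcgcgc
Herpud1, upstream bases: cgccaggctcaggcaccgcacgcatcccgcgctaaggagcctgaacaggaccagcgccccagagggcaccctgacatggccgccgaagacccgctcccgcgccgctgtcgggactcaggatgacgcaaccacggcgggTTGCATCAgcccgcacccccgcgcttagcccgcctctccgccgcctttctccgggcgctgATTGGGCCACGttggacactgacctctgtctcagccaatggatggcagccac

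The libraries held 4595331 to 16056708 counts (median 8628240). The library of young saline monocytes with replicate number 4 stood apart, with the lowest total, 12324 genes with a count against at least 13708 elsewhere, and a correlation of 0.945 with the mean of its group against at least 0.973 for the others. Single markers separated the sorts: Siglecf was 47.2 to 155.7 CPM in macrophages and at most 1.56 in monocytes, Mertk was 330.9 to 621.4 against 0.482 to 7.11, and Ly6c2 was 0.197 to 7.58 against 266.5 to 653.7. The list of 7 classical monocyte markers that holds Ly6c2 did not, with summed levels of 3911 to 12045 CPM in macrophages and 4152 to 9432 in monocytes. CPM are counts per 1000000 of the TMM-scaled library size, scaled over all 39 libraries. In bulk libraries fewer cells of a type and less RNA per cell cannot be told apart.

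Summed together, the members had a higher TMM-scaled level in macrophages. Their summed level was 9275 to 11552 CPM in the 19 macrophage libraries (median 9981) and 6434 to 9158 CPM in the 20 monocyte libraries (median 7354), and the 2 ranges did not overlap. Such a sum weighs the most abundant members most, and single members went in both directions, as given below. It was not set against sums of other genes. The median of this sum was 9981, 9855, 10076 and 10166 CPM in young saline, young ISRIB, old saline and old ISRIB macrophages, so the groups within macrophages lay close together. Set per kilobase of exon, the same few chaperones led in both cell types. In macrophages the order began with Calr at a median of 445.7 CPM per kb, Pdia3 at 274.0, Hspa5 at 238.8, Hsp90b1 at 229.8 and P4hb at 225.9. In monocytes it began with Calr at 172.4, P4hb at 164.5, Hspa5 at 158.0, Pdia3 at 149.3 and Hsp90b1 at 136.4. The lowest members in both cell types were Mbtps2, Pdia5 and Derl3. Derl3, a derlin, had 110 counts in all macrophage libraries together and 20 in all monocyte libraries, so its values are not interpreted as folds. It passed the filter on low counts through macrophage libraries, where it was higher. It is counted among the members called higher below, but that call is no support for a difference.

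**Figure D1:**
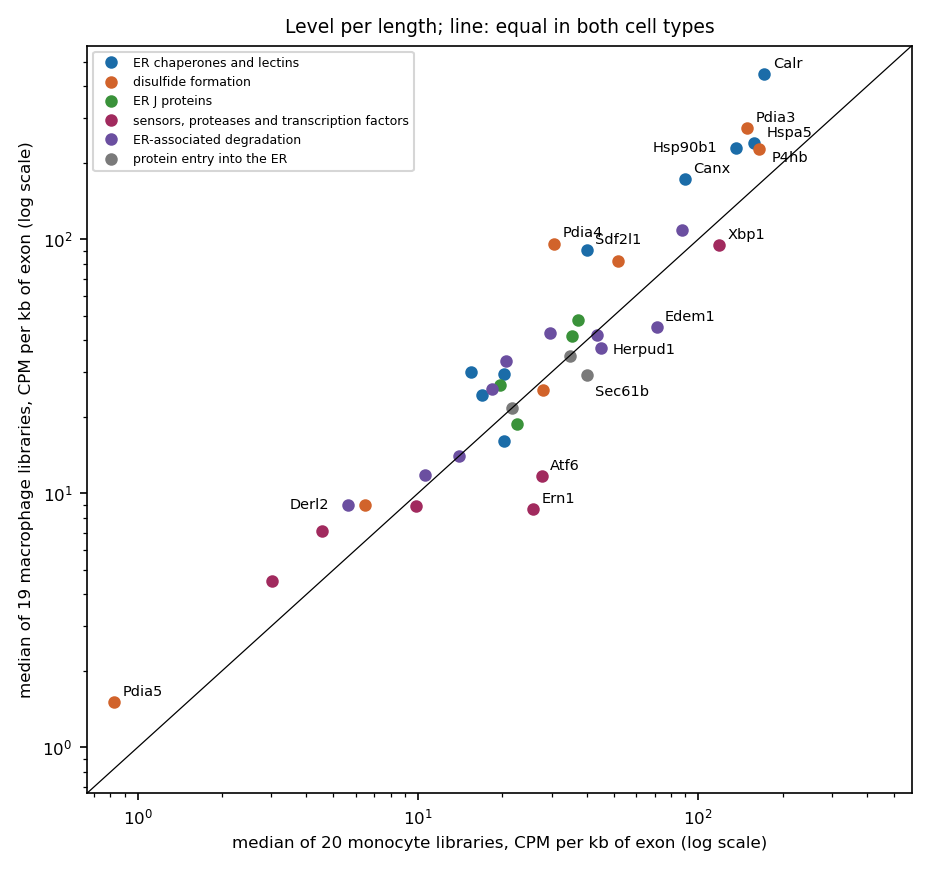
Median level of 39 members in 20 monocyte libraries (x axis) and 19 macrophage libraries (y axis), in CPM per kilobase of exon on log scales, coloured by role. The line marks equal levels. Calr, Pdia4 and Sdf2l1 lie above it and Atf6, Ern1 and Edem1 below it.

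The first comparison asks how the ER machinery differs between naive lung monocytes and bleomycin macrophages. Of the 20 folding genes (chaperones and lectins, disulfide formation and ER J proteins), 17 were higher in macrophages and 3 lower (Uggt1, Txndc5 and Dnajc10), and the ATF6 and IRE1 sensors, Edem1 and Sec61b were lower too. Pdia4 was 3.10-fold higher, Calr 2.58-fold, Sdf2l1 2.32-fold and Canx 1.91-fold, and Ern1 was 2.85-fold lower and Atf6 2.31-fold lower, as the mean of the comparisons in young saline, old saline, young ISRIB and old ISRIB mice. By edgeR's quasi-likelihood test, with Benjamini-Hochberg adjustment over all genes tested and a call at an adjusted p under 0.05, 36 of 40 members differed, 26 higher and 10 lower in macrophages. Of all 13587 genes tested, 79.2% were called, 39.9% higher and 39.2% lower. The median log2 fold change was 0.43 over the members and -0.003 over all genes. The 4 comparisons use disjoint libraries. They called 30 members in young saline mice (with 60.0% of all genes called), 28 in old saline mice (57.0%), 28 in young ISRIB mice (57.3%) and 29 in old ISRIB mice (59.4%). In all 4 of them 22 members were called in 1 and the same direction, as were 41.7% of all genes. Of these, 17 were higher and 5 lower (Ern1, Atf6, Edem1, Sec61b and Uggt1), while over all genes 2989 were higher and 2682 lower. Markers of other cells differed in level between the sorts as well. Summed levels in macrophages and in monocytes were 54.2 to 132.3 and 3.17 to 85.0 CPM for epithelium, 0.373 to 27.3 and 0 to 3.77 for fibroblasts, 18.8 to 639.6 and 137.4 to 343.1 for B and plasma cells, 1.31 to 30.3 and 7.19 to 86.8 for T and NK cells, 7.23 to 32.5 and 33.7 to 231.1 for dendritic cells, 58.5 to 126.0 and 100.5 to 377.8 for neutrophils, and 2.23 to 15.9 and 9.72 to 34.8 for endothelium. Their part in the differences between the cell types was not tested.

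**Figure D2:**
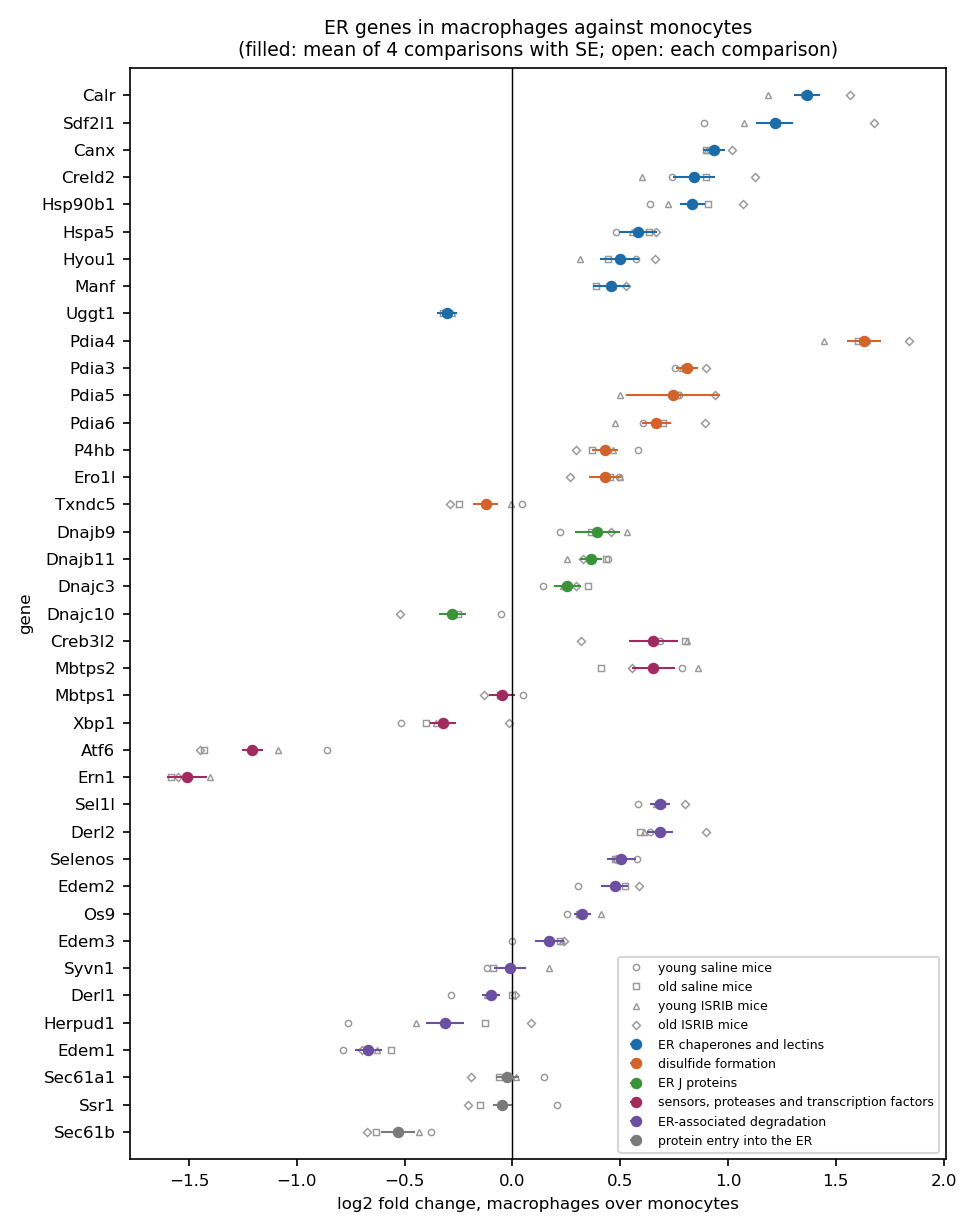
Log2 fold change of each member, macrophages over monocytes, grouped by role. Filled points with bars are the mean of 4 comparisons with its standard error (SE), open symbols are the separate comparisons, and Derl3 is not drawn. Pdia4 has the highest mean at 1.63 and Ern1 the lowest at -1.51.

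Among chaperones and lectins, 8 of 9 were higher and 1 was lower, with a median log2 fold change of 0.83. Hspa5 encodes BiP, the Hsp70 chaperone of the ER lumen that also holds the sensors inactive. Its level in young saline macrophages was 922.3, 721.0, 953.3, 865.7 and 1126 CPM, and in young saline monocytes 787.7, 673.6, 639.1, 679.1 and 506.3 CPM. These 2 groups overlapped by 1 library of each, and over all groups macrophages spanned 721.0 to 1407 CPM with a median of 1010 and monocytes 501.3 to 1154 with a median of 668.2. The log2 fold change was 0.58 ± 0.09 (SE; edgeR adjusted p = 1.58e-07). Hsp90b1, the ER Hsp90 also called GRP94, did not overlap between the cell types, with 873.9 to 1213 CPM (median 926.6) in macrophages and 391.2 to 700.9 (median 549.8) in monocytes, a log2 fold change of 0.83 ± 0.06 (edgeR adjusted p = 9.55e-17).

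The 2 lectins of the calnexin cycle, which hold glycoproteins while they fold, were separated more widely. Calr was 1215, 1284, 1312, 1273 and 1406 CPM in young saline macrophages and 570.1, 519.1, 547.7, 432.3 and 470.5 CPM in young saline monocytes. No macrophage library of any group was below 1107 CPM and no monocyte library above 685.2, and the log2 fold change was 1.37 ± 0.06 (edgeR adjusted p = 4.55e-23). Canx was 714.1 to 889.6 CPM in macrophages (median 811.4) and 305.9 to 542.5 in monocytes (median 422.1), again without overlap. Uggt1, which returns unfolded glycoproteins to that cycle, went the other way, at -0.30 ± 0.05 with a median of 206.5 CPM against 260.8. Sdf2l1, a small partner of ER J proteins, was 71.0 to 130.8 CPM in macrophages and 23.9 to 66.8 in monocytes (log2 fold change 1.22 ± 0.09, edgeR adjusted p = 3.67e-16). Creld2, Hyou1 and Manf, the remaining stress-inducible chaperones and secreted ER proteins, were higher by log2 fold changes of 0.84, 0.50 and 0.46.

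Of the 7 genes of disulfide formation, 6 were higher and Txndc5 was lower. Pdia4, a disulfide isomerase with more than 1 catalytic domain, had the largest fold among the members other than Derl3. It was 223.2, 220.5, 247.1, 227.9 and 251.5 CPM in young saline macrophages and 72.7, 74.6, 80.6, 66.2 and 79.9 CPM in young saline monocytes, and over all groups 205.6 to 286.2 against 50.7 to 123.1. The log2 fold change was 1.63 ± 0.08 (edgeR adjusted p = 1.66e-21), and it was 1.84 in old ISRIB mice and 1.45 to 1.64 in the other 3 comparisons. Pdia3, which serves glycoproteins held by the 2 lectins, was 716.3 to 946.9 CPM in macrophages and 397.1 to 625.3 in monocytes and did not overlap either. Pdia6, P4hb and the oxidase Ero1l were higher by 0.67, 0.43 and 0.43. Pdia5 was near 4.18 CPM in macrophages and 2.28 in monocytes, and was called in the mean (0.74 ± 0.22) but in none of the 4 comparisons. Txndc5 differed little, at -0.12 ± 0.06 (edgeR adjusted p = 0.0448), and its exons overlap other genes on the opposite strand.

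The ER J proteins, which stimulate BiP, were higher in 3 of 4 cases: Dnajb9 by 0.39, Dnajb11 by 0.36 and Dnajc3 by 0.25, while Dnajc10 was lower at -0.28. Of these, only Dnajb11 was called in all 4 comparisons.

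The sensors and their factors were the only group of members with a negative median apart from the 3 translocation genes, with 2 higher, 3 lower and 1 not called. Atf6 was the only member whose level in each macrophage library was below that in each monocyte library, a separation held by 9.41% of all genes tested. The gene lies at chr1:170704674-170867771 on the minus strand. Its level was 109.2, 112.5, 104.4, 120.4 and 104.3 CPM in young saline macrophages and 221.3, 204.7, 231.9, 154.4 and 187.6 CPM in young saline monocytes. Over all groups macrophages spanned 92.0 to 122.5 CPM and monocytes 154.4 to 308.8, and the log2 fold change was -1.21 ± 0.05 (edgeR adjusted p = 1.34e-24). Ern1, the IRE1 sensor, was 59.9 to 89.3 CPM (median 70.6) in macrophages and 82.2 to 271.9 (median 210.5) in monocytes. The 1 monocyte library that reached the macrophage range for Ern1 was the shallow library of young saline monocytes, and the next lowest monocyte library was at 144.5 CPM. The log2 fold change of Ern1 was -1.51 ± 0.09 (edgeR adjusted p = 5.45e-18).

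Xbp1, the target of IRE1 splicing, differed less. These counts do not separate spliced from unspliced Xbp1. It was 252.2, 267.6, 281.6, 312.2 and 315.0 CPM in young saline macrophages against 411.6, 415.2, 395.5, 347.6 and 474.6 in monocytes, which did not overlap. In old ISRIB mice it was 344.3, 374.9, 409.5, 304.1 and 354.4 CPM in macrophages against 376.5, 396.3, 360.8, 344.0 and 331.4 in monocytes, which did. Accordingly the log2 fold change was -0.52 ± 0.12 in young saline mice (edgeR adjusted p = 2.14e-04) and -0.02 ± 0.12 in old ISRIB mice (edgeR adjusted p = 0.907), with a mean of -0.32 ± 0.06. The difference between these 2 comparisons was not tested. The proteases that cut ATF6 had unlike values: Mbtps2 was higher by 0.65 ± 0.10, with exons that share bases with Yy2 on the same strand, and Mbtps1 was not called at -0.05 ± 0.06. Creb3l2, an ER-anchored transcription factor cut by the same proteases, was higher by 0.65 ± 0.11.

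In ER-associated degradation 7 of 11 members were higher, 3 lower and 1 not called. The higher ones included Sel1l, the scaffold of the HRD1 ligase (0.69 ± 0.05), Derl2, a membrane derlin (0.68 ± 0.06), Selenos (0.50), the mannosidase-like Edem2 (0.47) and the lectin Os9 (0.32), and also the sparse Derl3. Derl2 did not overlap, with 60.0 to 90.6 CPM in macrophages and 34.8 to 55.2 in monocytes. The ligase itself, Syvn1, had a median of 68.4 against 68.3 CPM and was not called. Edem1, which draws misfolded glycoproteins out of the folding cycle, was lower, with 247.9, 259.2, 266.8, 292.0 and 303.1 CPM in young saline macrophages and 530.9, 547.5, 470.0, 281.4 and 527.8 in young saline monocytes. Again the low monocyte value came from the shallow library, and over all groups the log2 fold change was -0.67 ± 0.06 (edgeR adjusted p = 1.72e-12). Without that library the fold changes of Ern1, Atf6 and Edem1 were -1.56, -1.22 and -0.70. Herpud1, a membrane protein of the same ligase, was lower in the mean at -0.31 ± 0.09 but not in each comparison, as described with age.

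Of the 3 genes of protein entry, Sec61a1, the pore of the translocon, and Ssr1, a translocon-associated protein, were not called in the mean (-0.02 ± 0.05 and -0.05 ± 0.04). Sec61b, the small beta subunit, was lower, with 24.95 to 51.4 CPM (median 37.2) in macrophages and 40.5 to 79.7 (median 51.0) in monocytes, a log2 fold change of -0.53 ± 0.08 (edgeR adjusted p = 1.22e-07). Of the 40 members, 7 had every macrophage library above every monocyte library (Hsp90b1, Calr, Canx, Sdf2l1, Pdia3, Pdia4 and Derl2), as did 11.6% of all genes tested. Read against the promoters printed above, the 11 members with ERSE or ERSE-II comprised 9 higher, 1 lower (Herpud1) and 1 not called (Syvn1). The 9 higher include the sparse Derl3, whose call is no support. The median log2 fold change was 0.67, and 0.63 without Derl3. The 24 members with a promoter and neither element comprised 15 higher, 7 lower and 2 not called, with a median of 0.41. No test was made of this difference.

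**Figure D3:**
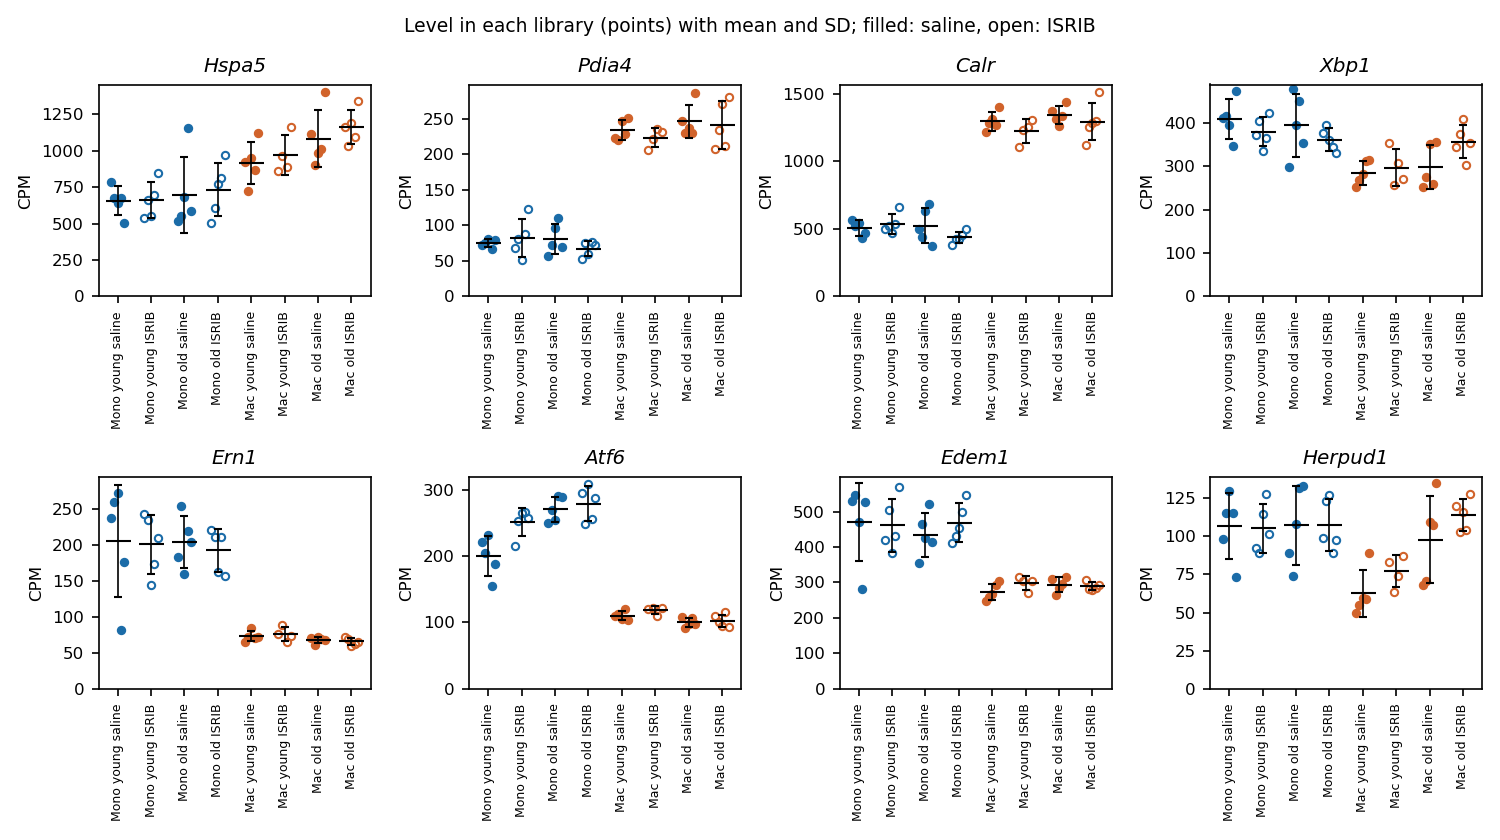
Level in CPM of 8 members in each of 39 libraries, with the mean and SD of each group. Filled points are saline and open points ISRIB, blue monocytes and orange macrophages. Calr and Pdia4 separate the cell types upward and Atf6 downward, and Herpud1 is lowest in young saline macrophages.

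Related ER genes outside the list were read the same way, from lists chosen with earlier results known. Of all genes tested in this comparison, 79.2% were called, 39.9% higher and 39.2% lower. Of 32 other ER folding proteins tested, 21 were higher, 4 lower and 7 not called, with a median log2 fold change of 0.52. The prolyl isomerases Fkbp14 (5.38 ± 0.73), Fkbp11 (3.66 ± 0.42) and Fkbp9 (2.58 ± 0.14) and the collagen chaperone Serpinh1 (2.09 ± 0.94) were among the higher ones. Serpinh1 was close to the threshold (edgeR adjusted p = 0.0439), and the folds of Fkbp14 and Serpinh1 have wide SE. The summed level of 7 fibroblast markers had a median of 3.89 CPM in macrophages and 0.242 CPM in monocytes, with Lum at 0 in all libraries, and its part in these values was not tested. Other translocation and glycosylation genes (15 higher, 6 lower, 7 not called), other degradation genes (9, 6 and 5) and genes of ER exit and retrieval (11, 3 and 6) also held more higher than lower genes. Their medians were smaller, at 0.16, 0.06 and 0.20. In the PERK branch 3 of 11 tested were higher, 6 lower and 2 not called, with a median of -0.38. Its share called was near that of all genes, and its lean toward lower genes was not tested. The sensor Eif2ak3 was lower by a log2 fold change of -0.57 ± 0.08, the factor Atf4 by -0.72 ± 0.09 and the eIF2 phosphatase subunit Ppp1r15a by -2.87 ± 0.12. Against these, Atf5 was higher by 1.52 ± 0.17 and Trib3 by 2.54 ± 0.37. These are RNA levels, and neither protein nor phosphorylation was measured.

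The second comparison asks whether the ER genes change with age. In macrophages 1 of 39 members tested was called as the mean of both treatments, against 4.86% of 12171 genes (592 genes, 380 of them, 3.12%, higher in old mice and 212 lower). Derl3 was too sparse to be tested within a cell type. The 1 called member was Herpud1, higher in old macrophages. The median over the members was 0.07, and 12 members had an unadjusted p under 0.05, against 17.8% of all genes. Taken singly, saline and ISRIB mice gave no called member, against 1.16% and 0.937% of genes. At an unadjusted p under 0.05 there were 4 members in saline mice (background 12.7%) and 8 in ISRIB mice (12.2%). DESeq2 called 294 and 260 of 12171 genes there, with 1 and 0 members among them. With limma voom 103 and 81 genes were called, with no member.

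Herpud1 (chr8:94386438-94395377, plus strand) was 49.4, 55.0, 59.8, 59.2 and 89.1 CPM in young saline macrophages and 67.8, 70.4, 109.4, 107.3 and 134.7 CPM in old saline macrophages. It was 83.2, 63.7, 74.0 and 87.4 CPM in young ISRIB macrophages and 119.6, 103.0, 115.8, 104.3 and 127.8 CPM in old ISRIB macrophages. The saline groups overlapped, because 2 old libraries lay below the highest young one, and the ISRIB groups did not. The log2 fold change was 0.60 ± 0.12 (edgeR adjusted p = 0.00292), and old libraries averaged 1.52-fold above young ones. Within treatments it was 0.64 ± 0.16 in saline mice (edgeR adjusted p = 0.0505) and 0.57 ± 0.17 in ISRIB mice (edgeR adjusted p = 0.122), so neither passed alone. Without the highest young saline library, at 89.1 CPM, the saline value was 0.80 and was called (edgeR adjusted p = 0.0169). The difference between them, -0.07 ± 0.24, was not called either (edgeR adjusted p = 0.995). Leaving out any 1 library gave 0.53 to 0.69 and adjusted p from 6.94e-04 to 0.00812.

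In monocytes Herpud1 had group medians of 115.3 CPM in young saline, 101.4 in young ISRIB, 107.9 in old saline and 99.2 in old ISRIB libraries, and an age effect of 0.02 ± 0.12 (edgeR adjusted p = 0.975). The age effects in the 2 cell types differed by 0.58 ± 0.18, which was not called (edgeR adjusted p = 0.120). Against monocytes of the same age and treatment, Herpud1 was lower in young saline macrophages, at -0.76 ± 0.18 (edgeR adjusted p = 3.07e-04), and in young ISRIB macrophages, at -0.45 ± 0.19 (edgeR adjusted p = 0.0383). It was not called in old saline macrophages, at -0.13 ± 0.17 (edgeR adjusted p = 0.548), or old ISRIB macrophages, at 0.09 ± 0.17 (edgeR adjusted p = 0.686). Markers of other cells also had other levels in old than in young macrophages, given here without a test. The summed level of 14 B and plasma cell markers was 18.8 to 43.5 CPM in young and 58.4 to 639.6 CPM in old macrophages. Within that list Igkc was 0 to 4.15 CPM in young and 6.15 to 142.1 CPM in old macrophages, Jchain reached 0.441 and 34.7 CPM, Igha 0.881 and 32.5, Mzb1 0.262 and 2.28, and Tnfrsf17 0.339 and 0.858 CPM. The summed level of 10 T and NK cell markers was 1.31 to 7.80 CPM in young and 8.58 to 30.3 CPM in old macrophages, with Ncr1 at 0 in all young ones, and that of 7 dendritic cell markers was 7.23 to 14.1 and 16.6 to 32.5 CPM. For these 3 lists the ages did not overlap. The summed level of 10 alveolar macrophage markers was 8009 to 11496 CPM in young and 8396 to 17966 CPM in old macrophages, and Ccr2, a monocyte receptor, was 159.0 to 458.0 CPM in young and 57.0 to 202.6 CPM in old. Summed, 7 classical monocyte markers were 3911 to 7146 CPM (median 5004) in young and 4168 to 12045 CPM (median 7231) in old. Their median thus went the other way from Ccr2, while that of 6 nonclassical monocyte markers was 314.1 CPM in young and 229.2 in old. Without the 2 old libraries highest in B and plasma cell markers Herpud1 differed by 0.52 (edgeR adjusted p = 0.0125). The old libraries kept still had 58.4 to 393.2 CPM of these markers, above every young one, so this fit cannot separate them from age. The part of these and of the other markers in this result was not tested.

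No chaperone was called with age. Hspa5 was 721.0 to 1165 CPM in young and 902.5 to 1407 CPM in old macrophages, which overlapped, and its log2 fold change was 0.25 ± 0.08 (edgeR adjusted p = 0.0867). Dnajb9, a BiP cofactor that holds IRE1 in check, was at 0.32 ± 0.10 (edgeR adjusted p = 0.0600). Besides Herpud1, DESeq2 called Hspa5 and Dnajb9, among 819 genes called. So did edgeR when low counts were not filtered, among 975 genes called. Creld2 and Sdf2l1 were at 0.31 ± 0.12 and 0.23 ± 0.08, and Hsp90b1, Calr and Canx at 0.13, 0.07 and 0.04. The sensors had negative values, Atf6 at -0.17 ± 0.06 (edgeR adjusted p = 0.0869) and Ern1 at -0.15 ± 0.07 (edgeR adjusted p = 0.226), and Xbp1 was at 0.17 ± 0.08 (edgeR adjusted p = 0.268). Of the related genes, the PERK branch held 2 called genes of 11, both higher in old macrophages, against 4.86% of all genes called and 3.12% called higher. Ppp1r15a was 10.97 to 38.9 CPM in young and 28.8 to 44.0 CPM in old macrophages (0.82 ± 0.13, edgeR adjusted p = 4.78e-04), and Atf5 was 1.18 to 17.1 against 7.33 to 26.4 CPM (1.01 ± 0.25, edgeR adjusted p = 0.0163). In saline mice, where 1.16% of all genes were called, they were at 1.25 ± 0.19 (edgeR adjusted p = 9.79e-04) and 1.40 ± 0.35 (edgeR adjusted p = 0.044). Neither was called in ISRIB mice, where Atf5 was at 0.62 ± 0.35 (edgeR adjusted p = 0.493). For the difference between treatments 0 genes were called. Among other degradation genes Erlin1 was lower (-0.25) and Ubxn4 higher (0.21).

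In monocytes no member was called for age, against 0.123% of 12170 genes (15 genes). By unadjusted edgeR p, 2 members were under 0.05, as were 8.24% of all genes. In saline mice alone 0 members were called by edgeR (0.0247% of genes, with 1 member and 8.81% of genes at an unadjusted p under 0.05), and in ISRIB mice 0 (0% of genes, with 1 member and 6.60%). DESeq2 called 46 genes in saline mice with 1 member among them and 22 in ISRIB mice with 0. With limma voom 1 gene was called in each, and no member. The member nearest to a call was Atf6, with a positive value where that in macrophages was negative. It was 154.4 to 267.0 CPM in young monocytes and 248.9 to 308.8 CPM in old ones, at 0.30 ± 0.07 (edgeR adjusted p = 0.120). DESeq2 called it (adjusted p = 0.0147), as did the edgeR fit over all 39 libraries (adjusted p = 0.0230) and the edgeR fit with offsets for GC content and length (adjusted p = 0.0454). In saline mice the 5 old libraries, at 249.8, 269.3, 254.2, 290.0 and 288.8 CPM, all lay above the 5 young ones, at 221.3, 204.7, 231.9, 154.4 and 187.6 CPM. In ISRIB mice the 2 ages overlapped, with 215.5 to 267.0 CPM in young and 248.9 to 308.8 CPM in old.

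The age effect of Atf6 was the only one among the members that was called as different between the cell types. It was lower in macrophages than in monocytes by 0.47 ± 0.09 on the log2 scale (edgeR adjusted p = 0.00593), in a comparison that called 0.743% of 13587 genes. At an unadjusted p under 0.05 that comparison had 8 members and 11.5% of all genes. This difference was called in each alternative fit, with values from -0.47 to -0.44, and after leaving out any 1 library, with values from -0.49 to -0.43. Atf6 in macrophages against monocytes was at -1.43 ± 0.09 in old saline and -1.45 ± 0.09 in old ISRIB mice against -0.86 ± 0.09 in young saline and -1.09 ± 0.10 in young ISRIB mice. The young saline monocytes include the shallow library, at 154.4 CPM, and without it the difference was -0.43 (edgeR adjusted p = 0.00468).

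The third comparison asks what ISRIB did to these genes. No member was called in macrophages of either age or in their mean, and none in monocytes. In macrophages the mean over both ages called 0.830% of 12171 genes (101 genes), and in monocytes 0 of 12170. By unadjusted edgeR p under 0.05 there were 6 members in macrophages, with a background of 16.6%, and 2 in monocytes, with a background of 7.49%. DESeq2 called 440 genes in macrophages with 1 member, and 1 gene in monocytes with no member. The ages taken singly called 0 genes (0%) by edgeR in either cell type. At an unadjusted p under 0.05 there were 4 members in young macrophages (12.4% of genes), 2 in old macrophages (9.14%), 1 in young monocytes (6.65%) and 1 in old monocytes (7.54%). DESeq2 called 105, 43, 0 and 14 genes there with no member among them, and limma voom called no gene.

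The member nearest to a call was Dnajb9 in macrophages, with 54.9, 52.6, 56.6, 40.2 and 60.6 CPM in young saline, 74.2, 67.3, 56.2 and 73.7 in young ISRIB, 45.3, 68.0, 63.8, 75.4 and 77.3 in old saline, and 80.1, 73.8, 99.7, 72.4 and 101.8 in old ISRIB libraries. Saline and ISRIB overlapped at both ages. The log2 fold change was 0.37 ± 0.10 (edgeR adjusted p = 0.0635), nearly the same in young (0.35 ± 0.14) and old mice (0.38 ± 0.14). It was called by DESeq2 (adjusted p = 0.0212) and by edgeR when low counts were not filtered (adjusted p = 0.00498). Herpud1 was at 0.26 ± 0.12 (edgeR adjusted p = 0.272), Xbp1 at 0.16 ± 0.08 (edgeR adjusted p = 0.322) and Hspa5 at 0.09 ± 0.08 (edgeR adjusted p = 0.630). For Hspa5, Hsp90b1, Calr, Canx, Ern1 and Atf6 the mean ISRIB effect in macrophages lay between -0.07 and 0.09, with SE from 0.05 to 0.08. A p that misses the threshold does not show that they were equal. Atf5, from the PERK branch, was the 1 related gene called, higher with ISRIB by 1.02 ± 0.24 (edgeR adjusted p = 0.0429), with 1.18 to 8.35 CPM in young saline, 6.96 to 17.1 in young ISRIB, 7.33 to 20.8 in old saline and 14.4 to 26.4 in old ISRIB macrophages. Saline and ISRIB overlapped at both ages. Its ISRIB effect was 1.41 ± 0.36 in young mice (edgeR adjusted p = 0.128) and 0.64 ± 0.33 in old mice (edgeR adjusted p = 0.567), and the difference of -0.77 ± 0.49 was not called (edgeR adjusted p = 0.973).

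In monocytes the ISRIB effects of members ran from -0.45 to 0.39. The ends were Sdf2l1, at -0.45 ± 0.15, and Creb3l2, at 0.39 ± 0.20, neither called. No member was called for a difference of the ISRIB effect between ages or between cell types, and no gene was called in those 3 edgeR comparisons. Unadjusted edgeR p were under 0.05 for 1 member in the difference between ages in macrophages (5.10% of genes), 1 in that in monocytes (7.11%) and 2 in that between cell types (8.38%). DESeq2 called 0, 0 and 43 genes there with no member among them, and limma voom none.

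**Figure D4:**
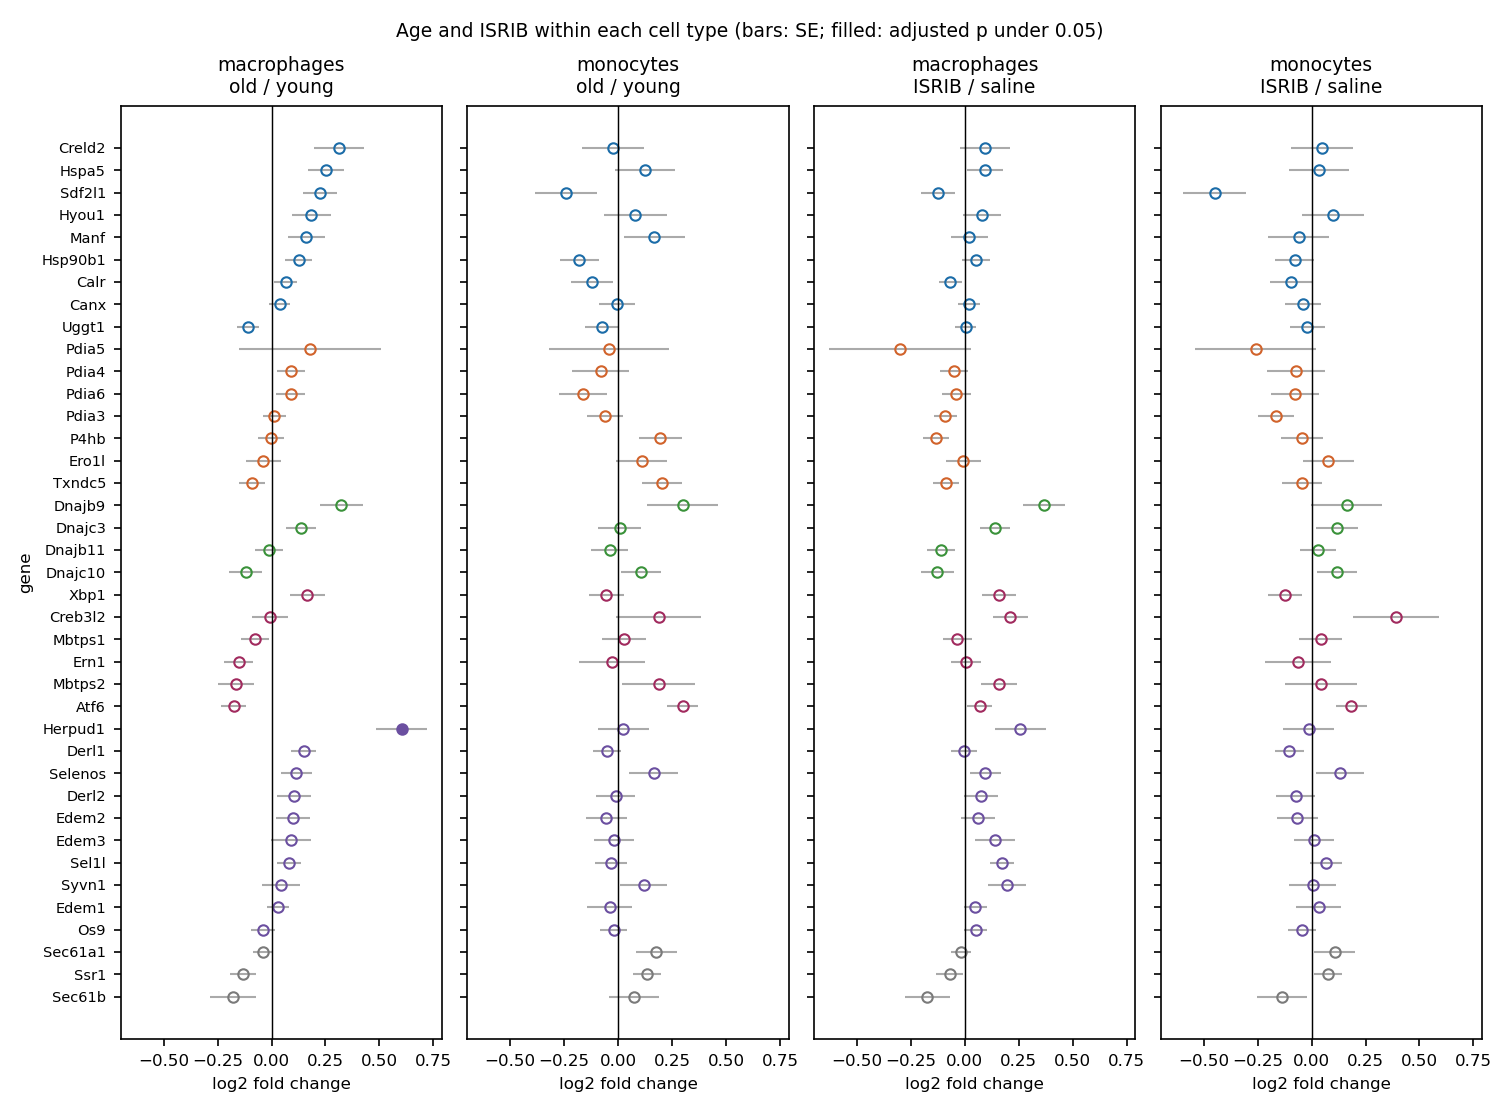
Log2 fold change with SE of 39 members for age (old over young, left pair) and ISRIB (ISRIB over saline, right pair) in each cell type, averaged over the other factor. The filled point, Herpud1 with age in macrophages at 0.60, is the only member with an edgeR adjusted p under 0.05.

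The members also differed between single libraries of a group. In young ISRIB monocytes 1 library was the highest of its group for 31 of 39 members, with a summed level of 9050 CPM against 6683 to 7614 in the other 4. In old ISRIB monocytes 1 library was highest for 27 members (8641 CPM against 6587 to 7568), and in old saline monocytes 1 library was highest for 20 (9158 CPM). Among macrophages, 1 old saline library was highest for 22 members (11459 CPM) and 1 old ISRIB library for 21 (11552 CPM). The old saline macrophage library was also the highest of its group in B and plasma cell markers, at 451.1 CPM. The old ISRIB library had 393.2 CPM of them and was not the highest of its group. The old ISRIB library with the most, 639.6 CPM, was highest for 7 members (10733 CPM). The shallow library of young saline monocytes was the lowest of its group for 22 members, with 6434 CPM. How often these libraries were highest or lowest over all genes was not counted. These counts therefore have no background and do not show a trait particular to the members.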

How the data were processed

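RNA was taken from sorted cells, and polyA-selected libraries were made from 3 ng of total RNA, per the labels' protocols. The submitters' processing notes name bcl2fastq 2.19.1, FastQC, Trimmomatic 0.36, STAR 2.6.0, HTSeq 0.11.2 and the build mm10, and no source used here gives the annotation release or the strand setting. The deposited values are counts: whole reads per Ensembl gene, 1 column per library, neither scaled nor filtered by the authors as far as the values show. Symbols were given to 42462 of 43430 IDs (97.8%), and gene positions, exon lengths and overlaps were taken from GENCODE vM21. Without a stated strand setting, reads of members whose exons overlap genes on the opposite strand, such as Hsp90b1, Manf, Sec61a1, Derl2 and Txndc5, cannot be told apart from theirs.

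Groups follow the sample labels. Genes were tested in R 4.3.3 with edgeR 4.0.16 by quasi-likelihood (TMM, filterByExpr with a minimum count of 10 and a minimum total of 15). Fits used the 19 macrophage libraries, the 20 monocyte libraries or all 39, with a mean for each group in the fit and contrasts between them. Only the fit of all 39 had 8 group means. The p-values were adjusted by Benjamini-Hochberg over all genes tested, and a gene was called under 0.05. The biological coefficient of variation was 0.206, 0.258 and 0.246 in the 3 fits. Alternatives were RLE size factors, DESeq2 1.42.0, limma 3.58.1 (voom), no filter, GC and length offsets (mgcv 1.9.3), other sets of libraries, a replicate block and leaving out each library. The scripts were tested on simulated data. The 76 pairs of libraries within groups were checked for duplicates, and their counts differed by at least 7.04 times the sampling noise (chi-square per degree of freedom). Replicate numbers were not used to pair libraries. The members, roles and related lists were chosen with earlier results of these data known. The rule for named genes allowed each member, gave full values for up to 5 called members per direction and for Hspa5, Hsp90b1, Xbp1, Ern1 and Atf6, and allowed up to 5 called genes per related list. Levels of the marker lists are given in the text and in the closing section.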

Additional observations from a re-analysis of the deposited data

Results flagged for a closer look

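In 14 genes examined in 8 groups, 4 of 112 sets of libraries held 1 library far from the rest by Dixon's criterion, which chance alone gives in about 1 of 20 groups of this size. Hspa5 was 1154 CPM in the old saline monocyte library with replicate number 4, against 516.9 to 684.3 in the other 4 of its group. Hsp90b1 was 993.5 CPM in the young saline macrophage library with replicate number 5, against 875.4 to 906.5. The same library was the highest of its group for Herpud1, at 89.1 CPM against 49.4 to 59.8, and without it the age effect of Herpud1 in saline macrophages was 0.80 (edgeR adjusted p = 0.0169). Atf6 was 215.5 CPM in the young ISRIB monocyte library with replicate number 1, against 253.5 to 267.0. A difference between groups in the same contrast was tested for each member, and Atf6 was the one that passed: its log2 age effect in macrophages minus that in monocytes was -0.47 (edgeR adjusted p = 0.00593).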

How the results depend on the processing

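Apart from leaving out libraries, 140 of 155 counts of called members stayed within 1.5 times the main count, all 155 medians of members moved by less than the spread between libraries, and of 273 values of single members none reversed and 14 passed the threshold only under the alternative. The counts that moved were these. For ISRIB in macrophages (main 0) DESeq2 and no filter each called 1 member, Dnajb9, and the replicate block called 2, Dnajb9 (0.40, edgeR adjusted p = 0.0327) and Herpud1 (0.34, edgeR adjusted p = 0.0392). For age in saline macrophages (main 0) RLE size factors, DESeq2, no filter and the replicate block each called 1, Herpud1, and for age in ISRIB macrophages (main 0) no filter called 1, Herpud1. For age in macrophages (main 1) DESeq2 and no filter each called 3, among 819 and 975 genes called. For age in saline monocytes (main 0) DESeq2 and the fit of all 39 libraries each called 1, Atf6, and for age in monocytes (main 0) DESeq2, GC and length offsets and the fit of all 39 libraries each called 1, Atf6. The cause of these moves was not tested. Same-numbered libraries did not deviate together (correlations of -0.15 to 0.17 in macrophages and -0.19 to 0.24 in monocytes), and 7 of 19 and 2 of 20 libraries correlated best with their own number, so the replicate block is given here only.

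Leaving out 1 library at a time, members called in macrophages against monocytes numbered 34 to 36 in the mean, 28 to 30 in young saline, 24 to 30 in old saline, 23 to 28 in young ISRIB and 25 to 30 in old ISRIB mice. For age in macrophages they numbered 1 to 3 in the mean, 0 to 1 in saline and 0 in ISRIB mice, and for ISRIB in macrophages 0 to 1. Age in saline macrophages gained Herpud1 without young saline library 5 (0.80), old saline library 1 (0.75) or old saline library 2 (0.74). The ISRIB mean gained Dnajb9 without old saline library 5 or young ISRIB library 3. Age in macrophages gained Dnajb9 without old saline library 1 or old ISRIB library 4, Hspa5 without young saline library 5 or young ISRIB library 4, and Hspa5 and Creld2 without old saline library 2. In monocytes, where it was not called, Hspa5 ran from -0.027 to 0.16 for ISRIB and from -0.0004 to 0.18 for age. Depth limits Derl3 and Pdia5, the members with the fewest counts.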

Other observations

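The summed level of eosinophil and mast cell markers reached 3.55 CPM in macrophages and 0.531 CPM in monocytes, and that of red blood cell markers 4.83 and 1.02 CPM. Nonclassical monocyte markers summed to 173.2 to 383.2 CPM in macrophages and 1372 to 4837 in monocytes. Markers of macrophages summed to 15283 to 33274 CPM in macrophages and 1809 to 3777 in monocytes. The classical monocyte list, 3911 to 12045 and 4152 to 9432 CPM, did not separate the sorts, while its member Ly6c2 did. The eIF2-linked factor Ddit3, also called CHOP, was 5.93 to 16.9 CPM in macrophages and 5.73 to 20.7 CPM in monocytes and was not called between the cell types.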
